A study of Mus musculus with 18 samples.

Results

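The genes described here are 10 markers of successive stages of the oligodendrocyte lineage, followed in WT control and HPRT-knockdown ESD3 cells during neuronal differentiation in vitro. Pdgfra and Cspg4 mark the precursor cell, Gpr17, Enpp6 and Bcas1 the committed cell that has left the precursor state, and Aspa, Trf, Sirt2, Gsn and Gjb1 the mature, myelin-forming cell. They were found by their gene symbol in the annotation of the Illumina MouseWG-6 v2 array, which gave 14 probes for the 10 genes among 45281 probes with 30869 distinct symbols. The genes were chosen by their known place in the lineage and with the neuronal-stage differences between the cell types in view, in which Enpp6 and Gpr17 stood among the largest. All values that involve neuronal-stage arrays are therefore given as a description, without a test.

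ESD3 is an embryonic stem (ES) cell line of mouse strain 129s2/SvPas, kept on feeder cells of mouse embryo fibroblasts. WT control cells carried a viral vector with a short hairpin RNA (shRNA) against luciferase and HPRT-knockdown cells one with an shRNA against HPRT, the purine salvage enzyme that is deficient in Lesch-Nyhan disease, and both were selected with puromycin after transduction. RNA was taken at the undifferentiated ES stage, at the spherical neural mass (SNM) stage, when cells grow as neural spheres, and at the final neuronal stage of a protocol for dopaminergic neurons. Each of the 6 conditions was measured on 3 arrays, 18 in all, and these 3 arrays shared a single RNA pool made from replicate cultures, so every SD and every test below covers technical spread around 1 pool per condition and not the spread between cultures or transductions.

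Oligodendrocyte precursors divide in response to platelet-derived growth factor (PDGF), which they sense through the receptor encoded by Pdgfra, and they carry the surface proteoglycan NG2, encoded by Cspg4. On leaving the cell cycle they pass through a brief premyelinating state in which the receptor Gpr17, the choline phosphodiesterase Enpp6 and the protein Bcas1 are made, and then build myelin. Mature oligodendrocytes are rich in transferrin and iron, split N-acetylaspartate with aspartoacylase, and are joined to one another and to astrocytes by gap junctions.

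A value below is a log2 signal, background-corrected and quantile-normalized, of the brightest probe of a gene, given as the mean ± SD of 3 arrays. A probe was detected on an array when its detection p-value was under 0.05, and the lowest detected signal lay between 4.67 and 4.99 on the log2 scale. A probe entered a test when all 3 arrays of either condition detected it, and was called when the limma fit across all probes gave an adjusted p under 0.05 and a difference of at least 1.5-fold. Detected probes numbered 18827 to 22202 per array, and Hprt1, the targeted gene, was lower in the knockdown by 94.1% in ES cells, by 70.5% in SNM cells and by 95.4% in neuronal cells. The RNA is from whole cultures, so fewer cells of a type and less RNA per cell cannot be told apart. Of 7 tested neuron markers, 5 were lower and 0 higher in knockdown arrays of the labelled neuronal stage, where 13.5% of all tested probes were called lower. Among them Stmn2 was 12.01 in control and 8.93 in knockdown arrays, and it already stood at 10.20 and 10.25 in ES cells. Elavl3 did not differ, at 8.14 and 8.13, and the probes of Nefl and Snap25 were not detected on any array.

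The upstream sequences of Enpp6 and Sirt2 are shown because both genes were lower in knockdown cells at the SNM stage and higher at the neuronal stage. That of Pdgfra is shown because it was called higher at the SNM stage, by a difference at the fold threshold. At the neuronal stage Pdgfra was not past the call rule, and the arrays of the cell types overlapped. The 250 bases before the RefSeq start site are printed 5′ to 3′ from build GRCm38.p6, for Enpp6 at chr8:46986637-46986886 and for Sirt2 at chr7:28766502-28766751 and Pdgfra at chr5:75152001-75152250, all on the + strand, with matches to any of 4 motifs in capitals.
Enpp6: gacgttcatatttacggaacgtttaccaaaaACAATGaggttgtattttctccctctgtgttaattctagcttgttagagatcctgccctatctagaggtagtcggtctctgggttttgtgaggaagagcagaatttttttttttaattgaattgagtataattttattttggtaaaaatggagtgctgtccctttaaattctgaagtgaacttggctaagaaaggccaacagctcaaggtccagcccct
Sirt2: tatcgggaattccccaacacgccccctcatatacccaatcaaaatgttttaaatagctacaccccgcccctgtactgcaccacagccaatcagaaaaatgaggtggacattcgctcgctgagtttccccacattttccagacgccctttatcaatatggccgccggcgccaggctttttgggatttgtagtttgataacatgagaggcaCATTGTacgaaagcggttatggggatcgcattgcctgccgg
Pdgfra: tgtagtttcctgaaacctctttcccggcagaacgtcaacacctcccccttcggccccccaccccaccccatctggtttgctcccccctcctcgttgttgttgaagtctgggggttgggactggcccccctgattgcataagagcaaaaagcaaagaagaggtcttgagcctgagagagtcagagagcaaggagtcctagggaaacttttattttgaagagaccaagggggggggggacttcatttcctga
The motifs searched on both strands were ACAAAG and ACAATG, of the kind bound by SOX factors, the E-box CAGCTG and the Myrf motif CTGGCAC, and no matches overlapped. Enpp6 and Sirt2 each held 1 match to ACAATG, in Sirt2 on the opposite strand, and Pdgfra held none of the motifs. Among 32851 windows of the same length, 10.7% held ACAATG, 16.5% ACAAAG, 13% CAGCTG and 4.19% CTGGCAC, so a match is a description of these letters only. Entries were read for 7 of the 10 genes and not for Gpr17, Bcas1 and Trf.

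**Figure D1:**
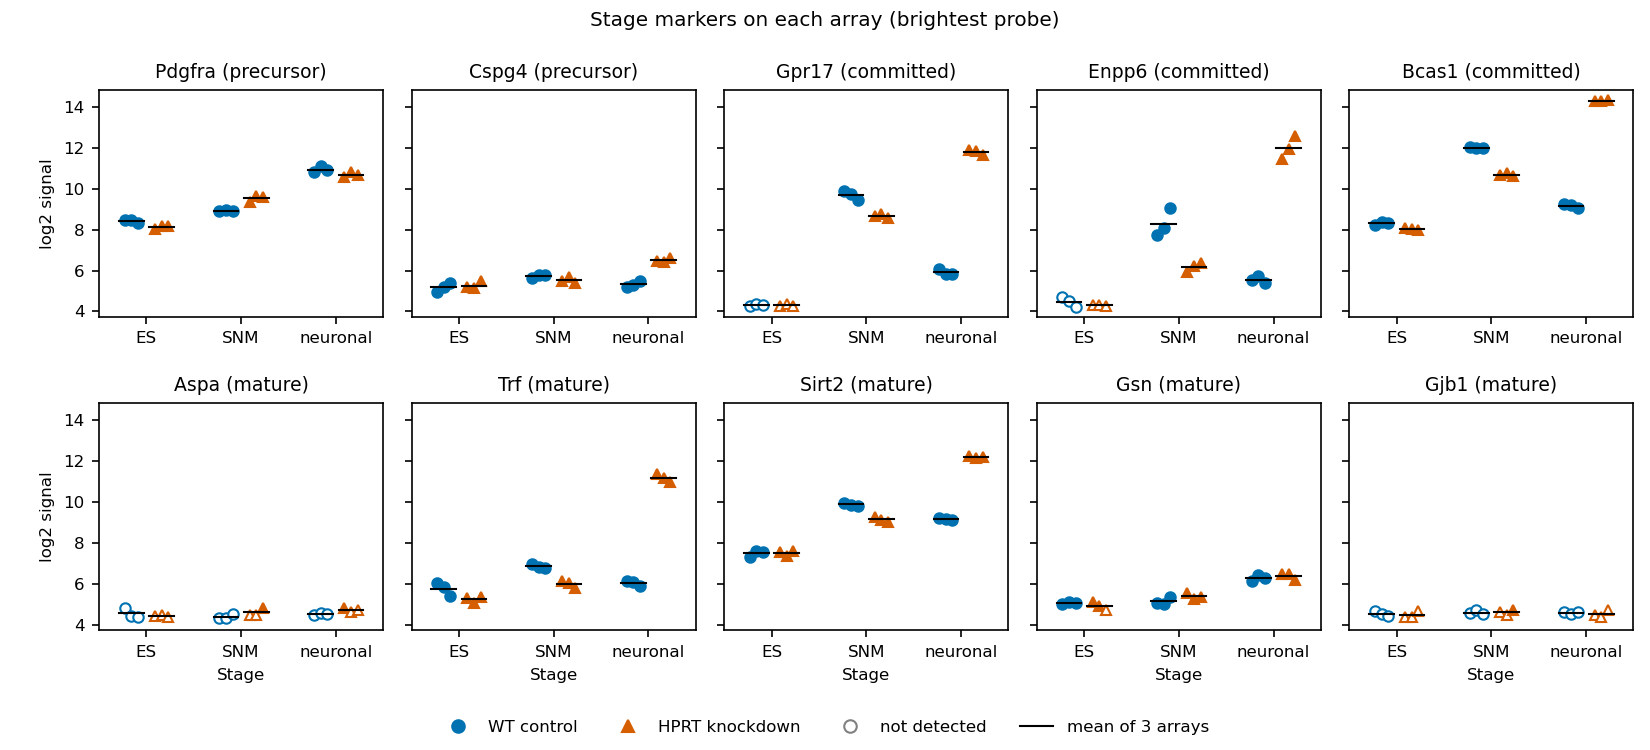
Log2 signal of the brightest probe of each of the 10 stage markers (vertical axis) on each array at the ES, SNM and neuronal stages (horizontal axis), with circles for WT control, triangles for HPRT knockdown, open symbols for arrays without detection, bars at the mean of 3 arrays, and arrays 1 to 3 from left to right. Gpr17, Enpp6, Bcas1, Trf and Sirt2 show control above knockdown at SNM and knockdown above control at the neuronal stage, while Aspa and Gjb1 stay near background.

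At the ES stage none of the 10 genes was called in either direction, and 6 were tested. Over all probes tested at this stage, 1.68% were called, 0.516% higher and 1.17% lower, and the median difference between knockdown and control was -0.19 for the tested markers and 0.01 for all tested probes, on the log2 scale. The difference was largest among the tested markers for Trf, which was 6.02, 5.84 and 5.40 on the control arrays and 5.32, 5.08 and 5.33 on the knockdown arrays. All control arrays lay above all knockdown arrays, and the difference of -0.51 ± 0.14 (SE) had an adjusted p of 0.03 from limma without reaching 1.5-fold. It was -0.68 and was called when the lowest control array, control ES replicate 3, was left out. Without background correction it was -0.25 with quantile normalization and with 75th percentile scaling, and was not called. Bcas1 differed by -0.27 (limma adjusted p = 0.0114) and Pdgfra by -0.30 (limma adjusted p = 0.0405), also under 1.5-fold. Gpr17 and Enpp6 were not detected on any ES array of either cell type.

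At the SNM stage the 3 markers of committed cells and 2 of the 5 mature markers were lower in knockdown than in control cells, and the precursor receptor Pdgfra was higher. Of the 10 genes, 5 fell (Gpr17, Enpp6, Bcas1, Trf and Sirt2) and 1 rose (Pdgfra), 8 being tested. Over all probes tested at this stage 19.9% were called, 8.9% lower and 11% higher. The median difference was -0.80 for the tested markers and -0.04 for all tested probes.

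Among the precursor markers, Pdgfra was 8.91, 8.99 and 8.93 on the control SNM arrays and 9.37, 9.65 and 9.61 on the knockdown SNM arrays. The knockdown arrays all lay above the control arrays, and the difference of 0.60 ± 0.09 (SE) corresponded to 1.51-fold (limma adjusted p = 4.11e-05). The rise stood at the fold threshold: it was 0.58 without control SNM replicate 1, 0.54 without knockdown SNM replicate 2 and 0.56 without knockdown SNM replicate 3, and was then no longer called, nor was it at 0.44 to 0.55 with the other normalizations. A second probe of Pdgfra, which the annotation gives no RefSeq accession, was near background on all arrays. Cspg4, the NG2 proteoglycan, was 5.74 ± 0.07 in control and 5.53 ± 0.15 in knockdown arrays, which overlapped. Its difference of -0.22 had a 95% interval from -0.47 to 0.03 and an adjusted p of 0.133 from limma.

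Gpr17, a G-protein coupled receptor of committed precursors, was 9.89, 9.75 and 9.47 on the control SNM arrays and 8.68, 8.75 and 8.56 on the knockdown SNM arrays. It was 2.06-fold lower in knockdown cells (log2 difference -1.04 ± 0.10 SE, limma adjusted p = 3.65e-07). Enpp6, which cleaves choline-containing lipids, was 7.74, 8.10 and 9.05 on the control SNM arrays and 5.95, 6.21 and 6.38 on the knockdown SNM arrays. The control arrays of Enpp6 had the wider spread, but all stood above the knockdown arrays. Enpp6 was 4.34-fold lower in knockdown cells (log2 difference -2.12 ± 0.28 SE, limma adjusted p = 1.22e-05), and its difference was -1.07 as the mean over both probes. The second probe was not detected on any SNM array, so this mean holds no second reading of the difference. The array numbered 3 read highest for Enpp6 in both cell types at this stage, by 0.75 and 0.20 above the means of their conditions, and again in knockdown cells at the neuronal stage, by 0.59. Bcas1, a protein of early myelinating cells, was 12.02 ± 0.02 on the 3 control SNM arrays, the highest at 12.04, and 10.68, 10.79 and 10.63 on the knockdown SNM arrays. It was 2.49-fold lower in knockdown cells (log2 difference -1.32 ± 0.06 SE, limma adjusted p = 8.74e-11).

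Of the mature markers, Trf, which encodes the iron carrier transferrin, was 6.96, 6.83 and 6.78 on the control SNM arrays and 6.15, 6.02 and 5.81 on the knockdown SNM arrays. Sirt2, an NAD-dependent deacetylase of myelin, was 9.95, 9.88 and 9.83 on the control SNM arrays and 9.29, 9.14 and 9.02 on the knockdown SNM arrays. For both genes the control arrays all lay above the knockdown arrays. The fall was 1.82-fold for Trf (-0.86 ± 0.14 SE, limma adjusted p = 9.46e-05) and 1.66-fold for Sirt2 (-0.73 ± 0.09 SE, limma adjusted p = 4.18e-06). The difference of Trf was -0.55 and -0.56 without background correction, under the fold threshold. Gsn, the actin-severing protein gelsolin, was 5.13 ± 0.17 in control and 5.40 ± 0.15 in knockdown arrays, close to the lowest detected signals, and its difference of 0.26 (95% interval 0.01 to 0.52) had a limma adjusted p of 0.0788. Aspa, the aspartoacylase, and Gjb1, a gap junction protein, were each detected on 1 knockdown SNM array and on no control SNM array.

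**Figure D2:**
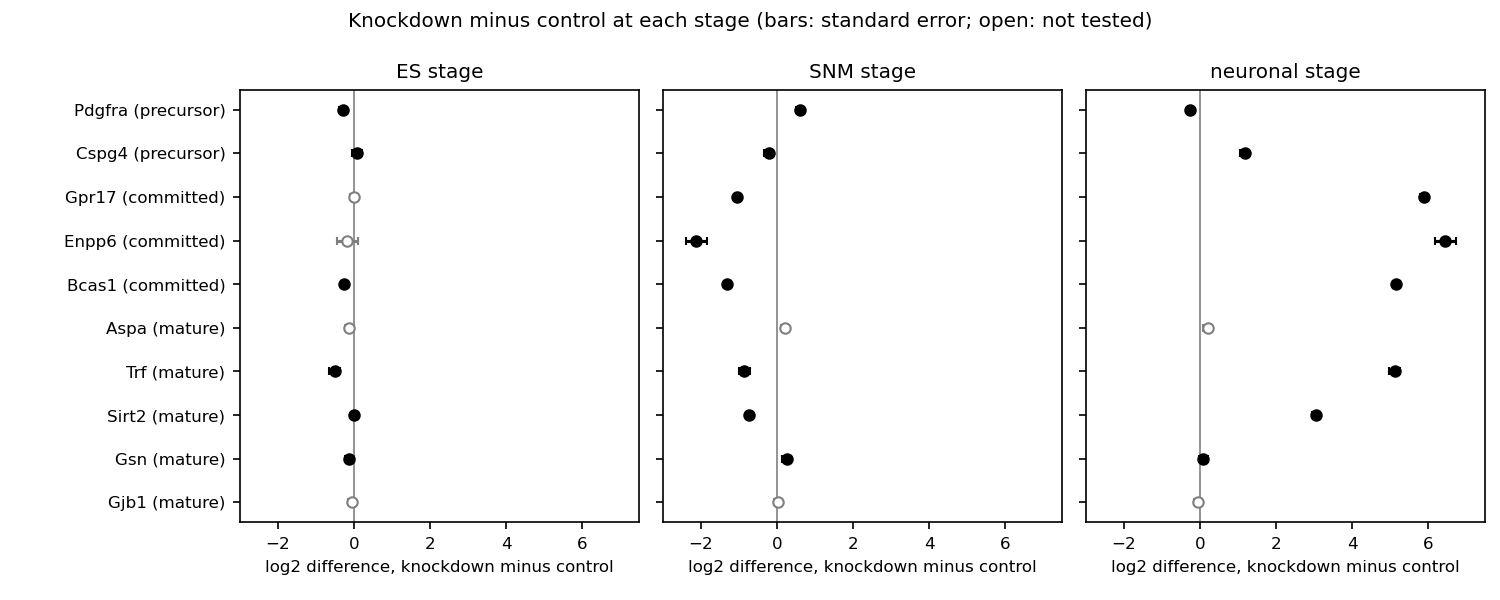
Log2 difference between HPRT-knockdown and WT control arrays (horizontal axis; points are fitted differences, bars their SE, open grey points probes not tested) for the 10 stage markers (vertical axis) at the ES, SNM and neuronal stages. At SNM, Enpp6 has the lowest value at -2.12, and at the neuronal stage the same gene has the highest at 6.46.

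In the course from the ES to the SNM stage, 5 of the 10 genes rose in control cells and 6 in knockdown cells, with none lower, against 49.1% and 57.3% of all tested probes called in either direction of which 23.7% and 26.4% were higher and 25.4% and 30.9% lower. Gpr17 went from no detection to a level at least 28.6-fold higher in control cells and at least 13.3-fold higher in knockdown cells, measured against the lowest detected signal of each array. Enpp6 rose at least 10.8-fold in control cells and at least 2.37-fold in knockdown cells on the same basis. Without background correction the log2 rise was smaller, 3.85 and 3.60 for Gpr17 and 2.47 and 2.26 for Enpp6 in control cells, and 2.90 and 2.71 for Gpr17 and 0.99 and 0.82 for Enpp6 in knockdown cells, against fitted values of 5.38, 3.81, 4.35 and 1.87, and the mean over both Enpp6 probes rose by 1.93 in control and 0.91 in knockdown cells. The second Enpp6 probe was not detected at either stage, so that mean holds no second reading of the rise. Bcas1 was already detected in ES cells, at 8.32 ± 0.07 in control and 8.05 ± 0.05 in knockdown arrays, and rose by 3.70 (limma adjusted p = 6.64e-17) and 2.65 (limma adjusted p = 1.09e-15). Sirt2 rose by 2.38 in control and 1.64 in knockdown cells, and Trf by 1.10 and 0.75. The rise of Trf in knockdown cells was 0.38 and 0.28 without background correction and was then not called, which left 5 genes. Pdgfra rose by 1.41 in knockdown cells (limma adjusted p = 3.9e-10), and its difference of 0.51 in control cells did not reach 1.5-fold (limma adjusted p = 8.67e-05). Cspg4 differed by 0.56 in control and 0.26 in knockdown cells and was called in neither.

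The change of the knockdown effect between the stages, that is the difference between knockdown and control at SNM minus that at ES, was tested with the interaction term. It was called for 5 of the 10 genes, 4 lower and 1 higher, against 21.3% of all tested probes, 9.61% lower and 11.7% higher. The term was -1.94 for Enpp6 (limma adjusted p = 0.00115), -1.05 for Bcas1 (limma adjusted p = 1.56e-07), -1.03 for Gpr17 (limma adjusted p = 3.44e-05), -0.74 for Sirt2 (limma adjusted p = 0.000219) and 0.90 for Pdgfra (limma adjusted p = 4.08e-05). For Enpp6 and Gpr17 the ES term rests on arrays without detection. For Trf the term was -0.35, with a 95% interval from -0.78 to 0.07 (limma adjusted p = 0.176).

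At the neuronal stage the order of the cell types was the opposite for the committed markers and for part of the mature ones. Of the 10 genes, 6 were past the call rule on the higher side in knockdown cells (Cspg4, Gpr17, Enpp6, Bcas1, Trf and Sirt2) and none on the lower side, with 8 tested. Over all tested probes 27.4% were called, 13.9% higher and 13.5% lower, and nothing is read from the markers' count because this comparison was known when they were named. The median difference was 4.08 for the tested markers and 0.01 for all tested probes.

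Pdgfra was 10.81, 11.10 and 10.94 on the control neuronal arrays and 10.58, 10.81 and 10.70 on the knockdown neuronal arrays, which overlap, and its difference was -0.25 ± 0.09 (SE). Cspg4 was 5.21, 5.31 and 5.47 on the control arrays and 6.49, 6.42 and 6.62 on the knockdown arrays, 2.26-fold higher in knockdown cells. The control values were close to the lowest detected signals. Without background correction the log2 difference of Cspg4 was 0.65 and 0.71, against a fitted 1.18, and still past the call rule.

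Gpr17 was 6.10, 5.83 and 5.82 on the control neuronal arrays and 11.90, 11.84 and 11.67 on the knockdown neuronal arrays, a difference of 5.89 ± 0.10 (SE). Enpp6 was 5.54, 5.73 and 5.39 on the control arrays and 11.46, 11.98 and 12.61 on the knockdown arrays, a difference of 6.46 ± 0.28 (SE). Bcas1 was 9.28, 9.19 and 9.06 on the control arrays and 14.33, 14.32 and 14.34 on the knockdown arrays, a difference of 5.15 ± 0.06 (SE). All 3 committed markers had their highest level of any condition in knockdown neuronal cells. On the linear scale the differences were 59.2-fold for Gpr17, 88.2-fold for Enpp6 and 35.6-fold for Bcas1. Without background correction the log2 differences were 5.06 and 4.98 for Gpr17 and 5.46 and 5.36 for Enpp6, and the mean over both Enpp6 probes differed by 3.72. The unprocessed signal of Bcas1 was 18800, 18000 and 19800 on the knockdown arrays, below the highest signal of an array, which was 24900 to 29600. The second probe of Enpp6 was detected only on the 3 knockdown neuronal arrays, at 4.99, 5.26 and 5.71, and stood at least 1.53-fold above control cells there, so the probes gave the same direction at the neuronal stage and very different sizes.

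Among the mature markers, Trf was 6.15, 6.08 and 5.90 on the control neuronal arrays and 11.36, 11.17 and 10.96 on the knockdown neuronal arrays. Sirt2 was 9.23, 9.16 and 9.11 on the control arrays and 12.27, 12.15 and 12.20 on the knockdown arrays. The differences of 5.12 ± 0.14 (SE) for Trf and 3.04 ± 0.09 (SE) for Sirt2 correspond to 34.7-fold and 8.21-fold, and no arrays overlapped. For Trf the difference was 4.36 and 4.30 without background correction. The brightest probe of Gsn was 6.29 ± 0.15 in control and 6.38 ± 0.19 in knockdown arrays, which overlap. The probes of Gsn disagreed, because the other one, which carries the RefSeq accession of the gene, was detected only in control neuronal cells, at 5.23, 5.26 and 5.05, and was at least 1.35-fold lower in knockdown cells. Its fitted difference of -0.67 was past the call rule on the lower side. The count of markers at this stage uses the brightest Gsn probe, which the annotation gives no RefSeq accession. Aspa was detected on 1 knockdown neuronal array, at 4.80, and on no control neuronal array, and its second probe was not detected on any array. Gjb1 was not detected on any neuronal array.

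From the SNM to the neuronal stage the cell types took opposite courses for the 5 genes that had been lower in knockdown SNM cells. In control cells the log2 difference between the stages was -3.79 for Gpr17, -2.84 for Bcas1, -2.74 for Enpp6, -0.81 for Trf and -0.72 for Sirt2. In knockdown cells the corresponding differences were 3.14 for Gpr17, 3.64 for Bcas1, 5.84 for Enpp6, 5.17 for Trf and 3.05 for Sirt2. Pdgfra was higher at the neuronal than at the SNM stage in both cell types, by 2.01 in control and 1.16 in knockdown cells, and the brightest Gsn probe by 1.16 and 0.99. Cspg4 differed by -0.42 in control and 0.98 in knockdown cells. In control cells 2 of the 10 genes were past the call rule on the higher and 5 on the lower side, where 29.4% of all tested probes were called, 14.3% higher and 15.1% lower. In knockdown cells 8 were on the higher side, where 28.6% were called, 13.8% higher and 14.8% lower. Without background correction this count was 6 with quantile normalization, where Gsn (0.54) and Cspg4 (0.56) were under the fold threshold, and 7 with 75th percentile scaling, where Gsn (0.57) was, and in control cells Trf, at -0.52 and -0.55, was no longer past the rule. The differences between the stages also shrank, to -3.03 and -3.05 for Gpr17 and -1.94 for Enpp6 with quantile normalization in control cells, and to 5.12 and 4.97 for Enpp6 and 4.39 and 4.31 for Trf in knockdown cells. As the mean over both probes they were -1.40 in control and 3.39 in knockdown cells for Enpp6, and 0.58 in knockdown cells for Gsn, under the threshold. At either stage the second Enpp6 probe was not detected in control cells, nor the second Gsn probe in knockdown cells. The knockdown effect at the neuronal stage minus that at SNM was past the call rule for 7 of the 10 genes, higher for 6 and lower for Pdgfra (-0.85), where 28.6% of all tested probes were called, 13.7% higher and 14.8% lower.

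Ordered over the 6 conditions, Gpr17, Enpp6 and Bcas1 had the same sequence of means, from knockdown neuronal through control SNM, knockdown SNM and control neuronal down to ES cells, and neighbours in that order overlapped only between the ES conditions of Gpr17 and Enpp6. For Trf and Sirt2 the arrays of control neuronal and knockdown SNM cells overlapped, at 6.05 and 5.99 for Trf and 9.17 and 9.15 for Sirt2. For Pdgfra the neuronal conditions were highest and overlapped, followed by knockdown SNM, control SNM, control ES and knockdown ES without overlap. For Cspg4 only knockdown neuronal cells stood clear of the next condition.

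The pattern across all 18 arrays was compared with that of 23171 other detected probes, as a description over arrays that come from 6 RNA pools. For Gpr17 the closest probes were those of Omg (r = 0.997), the oligodendrocyte myelin glycoprotein, Sox10 (r = 0.991), the transcription factor of the lineage, S100b (r = 0.989), Gatm (r = 0.986) and Aldh1a7 (r = 0.985). For Pdgfra they were those of Emp1 (r = 0.995), Ogn (r = 0.994), which encodes the extracellular matrix protein osteoglycin, BC018462 (r = 0.990), the spectrin gene Spnb1 (r = 0.990) and a probe named scl0002124.1_39 (r = 0.990). The values of Aspa were near background, and its closest probe, Rab9, reached r = 0.826, from which nothing is read. Between the markers, the correlation over 18 arrays was 0.98 for Gpr17 and Bcas1, 0.97 for Enpp6 and Bcas1, 0.95 for Pdgfra and Gsn, and 0.52 for Pdgfra and Gpr17.

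Other genes of the same stages, taken from lists chosen with earlier results known, were set beside the markers. At the SNM stage, 2 of 11 other precursor genes were lower and 4 higher in knockdown cells, with a median of -0.10 over the 10 tested. Of 11 other committed genes on the array, 3 were lower and none higher, with a median of -0.39 over the 10 tested, and of 26 other mature genes, 10 were lower and 4 higher, with a median of -0.80 over the 19 tested. Among the mature genes that rose were Ptgds (3.53), Cryab (1.96) and Mal (0.78), of which Ptgds makes prostaglandin D2 and Cryab is a small heat shock protein. The 4 precursor genes that rose were Ptprz1 (1.77), Cspg5 (1.32), Matn4 (0.95) and Cacng4 (0.86). At the neuronal stage 7, 9 and 17 of these precursor, committed and mature genes were on the higher side, and 1, 1 and 2 on the lower side, with medians of 1.73, 1.66 and 3.00. Over all tested probes, 11% were called higher and 8.9% lower at SNM, and 13.9% and 13.5% at the neuronal stage.

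By the size of the neuronal difference, the leading other precursor genes were Gpr37l1, a G-protein coupled receptor, and Lhfpl3. Gpr37l1 was 6.98 ± 0.10 in control and 4.88 ± 0.14 in knockdown SNM arrays (limma adjusted p = 3.37e-12), and 5.17 ± 0.08 and 10.37 ± 0.09 at the neuronal stage. Lhfpl3 was 7.68 ± 0.44 and 7.62 ± 0.34 at SNM (limma adjusted p = 0.808), and 6.09 ± 0.25 and 10.67 ± 0.36 at the neuronal stage. Gpr37l1 therefore had the SNM difference of the committed markers, and Lhfpl3 differed at SNM by less than its arrays. The leading committed genes were Lims2, with 9.61 ± 0.08 and 7.68 ± 0.09 at SNM (limma adjusted p = 4e-10) and 6.56 ± 0.16 and 11.62 ± 0.13 at the neuronal stage, and the sialidase Neu4, with log2 differences of -1.54 at SNM and 3.42 at the neuronal stage. The leading mature genes were the myelin proteins Opalin and Mag. Mag was 9.13 ± 0.06 and 6.91 ± 0.06 at SNM (limma adjusted p = 3.61e-10) and 5.91 ± 0.05 and 12.48 ± 0.03 at the neuronal stage. Opalin was detected on 1 of 3 knockdown SNM arrays and 2 of 3 control neuronal arrays, against all arrays of the other cell type, with log2 differences of -2.35 and 7.14.

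**Figure D3:**
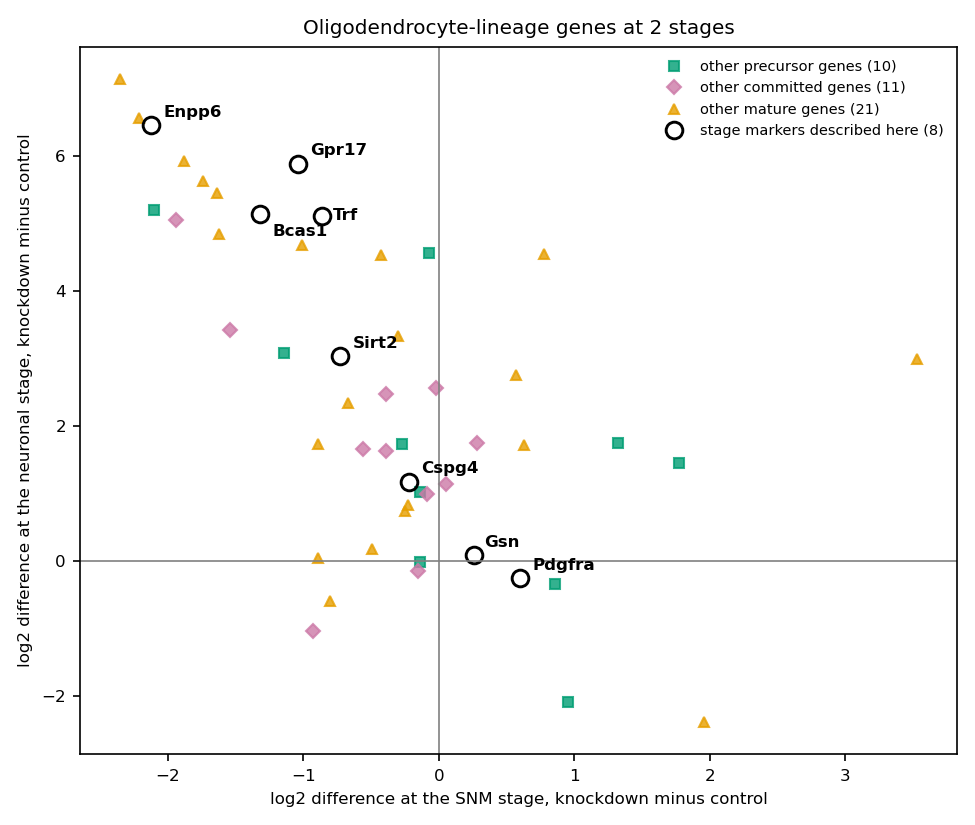
Log2 difference between HPRT-knockdown and WT control arrays at the SNM stage (horizontal axis) and at the neuronal stage (vertical axis), for 8 of the stage markers (open circles, named) and for 10 other precursor, 11 other committed and 21 other mature genes of the oligodendrocyte lineage (filled symbols). Gpr17, Enpp6, Bcas1, Trf and Sirt2 lie at upper left, lower at SNM and higher at the neuronal stage, while Pdgfra lies at 0.60 and -0.25.

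The ligands, relatives and pathway partners of the markers were followed in 8 lists. Of the PDGF genes, 1 of 4 tested rose at SNM, namely Pdgfa, the ligand of the Pdgfra receptor, by 0.64 (limma adjusted p = 0.000493). At the neuronal stage Pdgfa was 1.48 higher in knockdown cells, and Pdgfb differed by -0.46. Of 7 receptors related to Gpr17, 2 were tested at SNM, and P2ry14 was 1.34 higher in knockdown cells at SNM (limma adjusted p = 1.53e-09) and 1.09 higher at the neuronal stage, where P2ry1 was 0.72 higher. Of the other Enpp enzymes, 1 of 4 tested rose at SNM, namely Enpp5 by 1.41 (limma adjusted p = 1.68e-08). Enpp2, or autotaxin, was 2.86 higher and Enpp1 1.02 higher in knockdown cells at the neuronal stage. None of the tested PDGF genes, receptors related to Gpr17 and other Enpp enzymes was called lower at SNM, where P2ry1 differed by -0.11 and Enpp4 by -0.32. Over all tested probes, 11% were called higher and 8.9% lower at SNM, and 13.9% and 13.5% at the neuronal stage.

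Aspa itself was near background, and Nat8l, which makes its substrate N-acetylaspartate, was 0.93 higher and Acss2, which turns acetate into acetyl-CoA, 1.22 higher in knockdown neuronal cells, Acss2 having fallen by 0.59 at SNM (limma adjusted p = 4.88e-06). Of 9 tested iron handling genes none was called at SNM at an adjusted p under 0.05 and 1.5-fold, and at the neuronal stage the transferrin receptor Tfrc differed by -1.47 and the iron exporter Slc40a1 by -0.77, opposite in sign to Trf. Of the other sirtuins, at SNM Sirt3 rose by 0.76 and Sirt1 fell by 0.79, and at the neuronal stage Sirt7 differed by 0.87 and Sirt1 by -0.61. Of the other gelsolin family genes, Scin rose by 0.89 at SNM, and at the neuronal stage Scin differed by -1.07 and Svil by -0.76. Of 8 tested other connexins, 4 rose at SNM, among them Gjd2 by 1.52, Gjb6 by 1.37 and Gjb2 by 1.06, and none was lower. Over all probes tested at SNM, 11% were called higher and 8.9% lower. At the neuronal stage Gjd2, a connexin of neurons, differed by -2.43.

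Markers of other cell types also differed in the same comparisons. Over all probes tested at the neuronal stage, 13.9% were called higher and 13.5% lower. At the neuronal stage the 7 skeletal muscle markers were all lower in knockdown cells, and their summed signal after background correction was 54600 to 55100 on control arrays and 105 to 196 on knockdown arrays. Of 7 tested neuron markers 5 were lower, with sums of 7650 to 8110 in control and 1660 to 1700 in knockdown arrays. Of 11 fibroblast markers 10 were lower, with sums of 23100 to 26700 in control and 11700 to 15200 in knockdown arrays. Of 8 astrocyte markers 6 were higher and 1 lower, with sums of 11100 to 12500 and 13200 to 14200, and 5 of 7 tested endoderm markers and 3 of 5 tested choroid plexus markers were higher. For Schwann cell markers, which matter because Schwann cells share myelin genes, 1 of 5 tested was higher (Cdh19) and 1 lower (Ngfr). The part of these cell types in the levels of the markers was not tested.

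At the SNM stage, 4 of 8 astrocyte markers, 5 of 6 tested skeletal muscle markers, 5 of 8 tested endoderm markers, 3 of 5 tested choroid plexus markers and 3 of 11 fibroblast markers rose in knockdown cells. Of 6 tested Schwann cell markers 3 fell, and of 7 tested neuron markers 2 fell and 1 rose. Over all probes tested at SNM, 11% were called higher and 8.9% lower. Of the microglia markers 1 was tested, with a difference of -0.09. Pericytes, which also carry Cspg4, had none of 4 tested markers called at SNM, and at the neuronal stage Abcc9 differed by -0.61. The summed pericyte level was 270 to 314 in control and 272 to 313 in knockdown neuronal arrays. Fibroblasts also carry Pdgfra, and the part of either cell type in the levels of Cspg4 and Pdgfra was not tested.

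**Figure D4:**
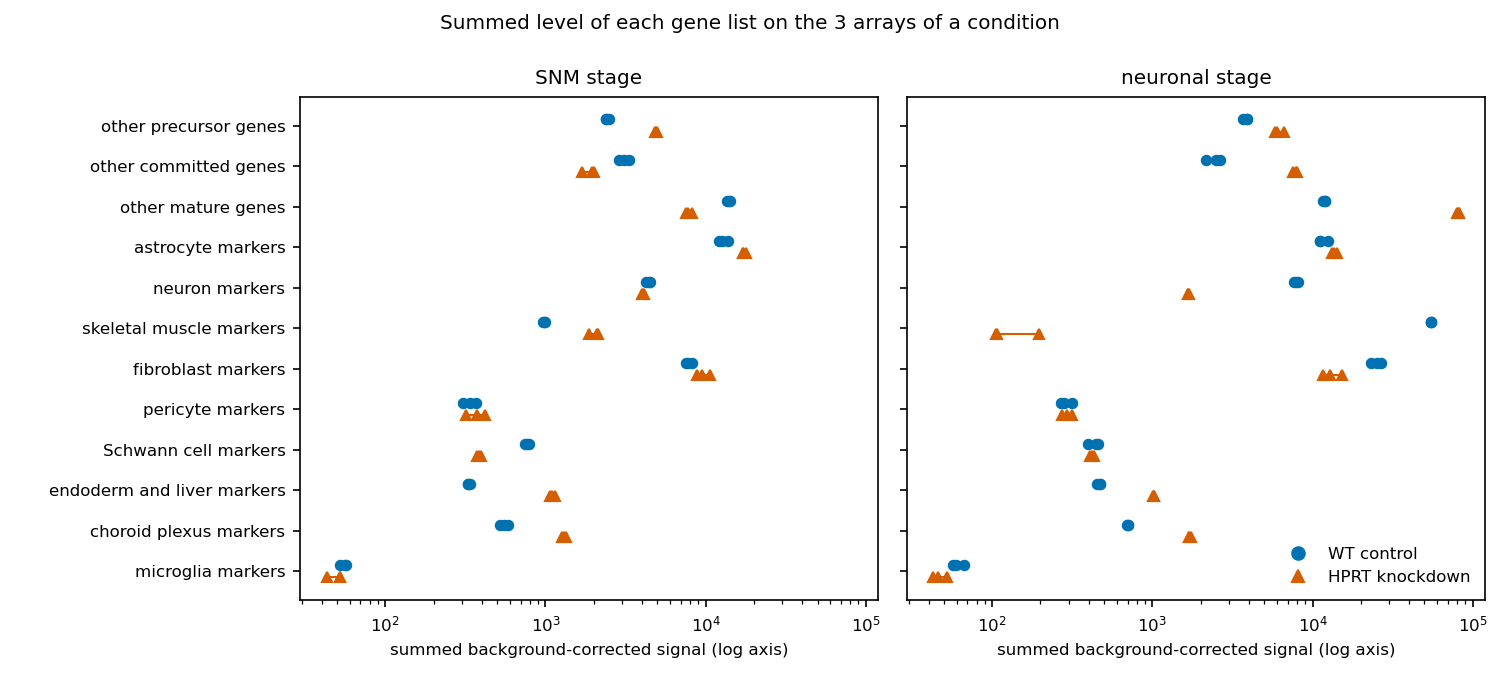
Summed background-corrected signal of each gene list (horizontal log axis, arbitrary linear signal units; symbols are the 3 arrays of a condition, circles WT control and triangles HPRT knockdown) for 3 oligodendrocyte-lineage lists and 9 cell type marker lists (vertical axis) at the SNM and neuronal stages. The other mature oligodendrocyte genes sum to 11700 to 12000 in control and 79400 to 81800 in knockdown neuronal arrays, and the skeletal muscle markers show the opposite order.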

How the data were processed

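Each of 6 conditions was read on 3 Illumina MouseWG-6 v2 arrays from 1 RNA pool. The table the authors deposited holds bead-averaged signal intensity, neither background-subtracted nor normalized, with its detection p-value. Gene symbols came from another deposited table, whose 72 columns of per-sample values, named by chip position, were not used. Under R 4.3.3, limma 3.58.1 was used for background correction and normalization (neqc, background inferred from the detection p-values, offset 16, quantiles, log2) and for 1 linear model over all 18 arrays (lmFit, contrasts.fit, eBayes), with two-sided tests and Benjamini-Hochberg adjustment over all tested probes. A probe not detected on any array of a condition gave a lower bound, against the lowest detected signal of each array or its own signal if higher. The fit was tested on simulated data. The 3 arrays against 3 of a comparison limit the precision, and an exact permutation test of them could not go below 0.1.

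The markers and 20 further gene lists were chosen with earlier results of these data known. The limma tests at the ES and SNM stages may therefore not be independent of that choice. Each gene is represented by its brightest probe. Of each further list the 2 genes with the largest neuronal difference are named, with those behind counts of 5 or fewer (some genes of the lists are not reported here), and for 3 markers the 5 closest probes by correlation. Other genes named were picked after their values were seen. The lists hold 11 genes with no probe under their symbol. Conditions and array numbers were read from the sample labels. Alternatives were other normalizations, no detection filter, a 2-fold threshold, the mean over probes, the replicate block, only the arrays compared, the t-test the methods name, and leaving out each array. Promoter windows are RefSeq sequences of GRCm38.p6, matched by symbol. The genome build of the probes is not given in the sources used here.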

Additional observations from a re-analysis of the deposited data

Results flagged for a closer look

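For 5 markers the knockdown effect at the SNM stage differed from that at the ES stage by the interaction term of the limma fit. Over all tested probes, 21.3% were called for this term, 9.61% lower and 11.7% higher. Gpr17 and Enpp6 were not detected on any ES array, so their terms rest on ES arrays without detection. The difference, SNM minus ES on the log2 scale, was 0.90 for Pdgfra, -1.03 for Gpr17, -1.94 for Enpp6, -1.05 for Bcas1 and -0.74 for Sirt2.

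For 5 markers every knockdown array lay below every control array at SNM and above every control array at the neuronal stage. Over all tested probes, 8.9% were called lower at SNM and 13.9% higher at the neuronal stage. The share of probes with both is not given here, so nothing is read from this count. The knockdown effect at the neuronal stage minus that at SNM was 6.93 for Gpr17, 8.58 for Enpp6, 6.47 for Bcas1, 5.98 for Trf and 3.77 for Sirt2, and this difference was not tested because the neuronal values were known when the genes were named. Without background correction these were 6.02 and 5.96 for Gpr17, 7.06 and 6.97 for Enpp6 and 4.91 and 4.86 for Trf. As the mean over both probes of Enpp6, the difference was -1.02 for SNM minus ES and 4.79 for the neuronal stage minus SNM. The second probe was not detected on any ES or SNM array.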

How the results depend on the processing

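No value of a marker that was called changed direction under any alternative that was run. At the SNM stage the count of markers higher in knockdown cells went from 1 to 0 under quantile normalization without background correction, 75th percentile scaling without background correction, background correction with 75th percentile scaling and the 2-fold threshold, and ranged from 0 to 1 when single arrays were left out. The count of markers lower at SNM went from 5 to 3 at 2-fold (Trf and Sirt2 lost), and the count of markers lower in neuronal than in SNM control cells also from 5 to 3. At 2-fold the counts of 1 higher for the knockdown effect at SNM minus ES and of 1 lower for that at the neuronal stage minus SNM (both Pdgfra) went to 0. The count lower at the ES stage ranged from 0 to 1 when single arrays were left out. The 2-fold threshold changes counts by its own construction, and for the other settings the cause was not tested. Among single values of markers, 24 were no longer called under these and the other alternatives and 836 kept their status as called or not called; with single arrays left out, 3 were no longer called, 3 were newly called and 654 kept their status. Some values that were not called changed sign, such as that of Cspg4 at the ES stage (0.08, range -0.03 to 0.19). The deviations of arrays of equal number correlated at -0.09, 0.03 and 0.10 at the ES stage, 0.49, 0.11 and 0.49 at SNM and 0.61, 0.09 and 0.32 at the neuronal stage. The main fit did not take the arrays as paired, although the values at SNM and the neuronal stage were all positive. With the array number as a replicate block, 5 markers were lower and 1 higher at SNM and 6 higher at the neuronal stage, as without it, and the block changed no call of a marker. The methods' t-test gave the same counts of markers at their unadjusted threshold and after Benjamini-Hochberg adjustment; over all probes at the ES stage it called 294 and 78, against 310 with limma. Without background correction the calls over all probes went from 310 to 57 and 56 at the ES stage, from 4127 to 2326 and 2452 at SNM and from 5732 to 3690 and 3760 at the neuronal stage, and with the 2-fold threshold they were 25, 1267 and 2636. Between the SNM and neuronal stages, calls without background correction were 3781 and 4006 for control cells and 3820 and 3854 for knockdown cells, against 6088 and 6051; for the knockdown effect at SNM minus ES they were 2564 and 2938 against 4721. For Aspa and Gjb1 the signal over background sets the limit: a level under the lowest detected signal of 4.67 to 4.99 cannot be told from none.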
